A study of Mus musculus with 4 samples.

Results

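The genes described here encode the subunits of the mitochondrial respiratory chain, complexes I to IV, and of ATP synthase, complex V, in MG5 cells, a mouse microglial cell line. Members were chosen by gene symbol alone. The patterns took symbols that begin with Nduf followed by a, b, c, s or v and a number, the 4 genes Sdha to Sdhd, symbols that begin with Uqcr or Atp5, symbols that begin with Cox, a number from 4 to 8 and a letter from a to c, and the 13 protein genes of the mitochondrial DNA. Of 108 symbols that matched, 11 were pseudogenes or noncoding, and Ndufa4 and Ndufa4l2 were left out by name. This gave 95 members of 45777 genes in the table, 82 of them nuclear and 13 mitochondrial. Complex I had 37 nuclear and 7 mitochondrial members, complex II 4 nuclear members, complex III 8 and 1, complex IV 16 and 3, and complex V 17 and 2. A few true subunits whose symbols escape these patterns, such as Cyc1 and Cox4i1, were followed in a separate list.

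RNA-seq was available for 2 groups of 2 libraries each. In the 6OHA group, replicates 1 and 3, MG5 cells labelled wild type were exposed for 6 h to 10 µM of 6OHA. This compound is a code-named agonist of the nuclear receptor RXR (retinoid X receptor). In the control group, replicates 1 and 2, MG5 cells labelled wild type were untreated. The labels do not say whether these control cells received the solvent. All cells were of this 1 line and grew in medium mixed with medium conditioned by A1 astrocyte-like cells. Separate cultures are not stated in the labels, so the p-values reflect only how much these libraries vary, and that variation may be technical. All 11 microglial and macrophage markers were above 1 TPM (transcripts-per-million, a level per transcript length), with a summed level of 6934 and 7404 TPM in 6OHA and 6973 and 7331 TPM in control. Among them, Cx3cr1 had 11.996 and 12.11 TPM in 6OHA against 22.3 and 20.4 TPM in control. P2ry12 had 70.5 and 62.1 TPM against 76.6 and 71.8 TPM. Csf1r went the other way, with 1645 and 1717 TPM against 1550 and 1619 TPM. The groups did not overlap for these genes and overlapped for the other markers of this list. The part of these genes in the results was not tested. Of the markers of other cell types, 2 of 6 for astrocytes (Gfap and Aqp4), 2 of 4 for neurons (Rbfox3 and Syt1), 2 of 4 for oligodendrocytes (Mog and Olig2) and 3 of 4 for fibroblasts (Col1a2, Dcn and Pdgfra) had 0 counts in all 4 libraries. The astrocyte list summed to 10.0 and 10.4 TPM in 6OHA and 15.3 and 15.2 TPM in control, most of it from Aldh1l1 with 8.01 and 8.72 TPM against 11.8 and 11.5 TPM. Of the neuron list, Snap25 had 3.31 and 3.42 TPM in 6OHA and 5.18 and 4.38 TPM in control, and Camk2a had 0.0637 and 0.0726 TPM against 0.0477 and 0.0383 TPM. The oligodendrocyte list summed to 42.8 and 44.8 TPM in 6OHA and 36.9 and 34.4 TPM in control, nearly all from Mbp. The groups did not overlap in these 3 summed levels, whose part in the results was not tested. The fibroblast list summed to 0.0466 and 0 TPM in 6OHA and 0 and 0.0355 TPM in control, and the endothelial list, with 1 of 3 markers at 0 counts, to 5.01 and 5.54 TPM against 5.04 and 5.91 TPM. The 6OHA libraries held 31057950 and 35314782 counts, and the control libraries 42541641 and 34406649.

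Complex I takes electrons from NADH and complex II takes them from succinate, and both pass them to ubiquinone. Complex III hands them to cytochrome c and complex IV to oxygen, while complexes I, III and IV pump protons that ATP synthase lets flow back to make ATP. Complex II is made of nuclear-encoded proteins only, whereas the other complexes join nuclear products with proteins made inside the mitochondrion from long transcripts of the mitochondrial DNA. Nuclear subunit genes are known as targets of the transcription factors NRF1 and GABPA and of coactivators of the PGC-1 family, which also bind nuclear receptors. Microglia and other macrophages are known to shift between respiration and glycolysis when they are activated.

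Some nuclear members had promoter matches to the NRF1 or the GABPA site, which their selection did not use. RefSeq promoters of the GRCm38.p6 assembly, from 250 bases before to 50 bases after the start, were matched for 68 of the 82 nuclear members. The NRF1 site, spelled GCGCA and GCGC with any 1 base between them and searched, like the others, on both strands, was present in 17 of 68 members (25%), against 7.17% of 17519 protein-coding genes with a promoter. The ETS-type GABPA site CCGGAAG was present in 17 members (25%), against 12.9% of protein-coding genes. The nuclear receptor element AGGTCA occurred in 16 members (23.5%), against 16.7%. Direct repeats of AGGTCA with 1 or with 4 bases between the copies occurred in 0 of 68 members, against 0.0571% and 0.00571% of protein-coding genes, and each such repeat also counts as AGGTCA. Neither an NRF1 nor a GABPA site was found in 38 of the 68. These are matches of letters and not measured binding, and no test of the difference in shares was made.

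The 250 bases before the start are shown on the gene's own strand for 3 members that carry the NRF1 site and for the nuclear members with the highest and the lowest fold change at a mean of at least 5 counts-per-million. The Sdha promoter (chr13:74350241-74350490, minus strand), the Sdhd promoter (chr9:50603850-50604099, minus strand) and the Cox6a1 promoter (chr5:115348959-115349208, minus strand) were picked by eye for their matches. The Ndufa12 promoter (chr10:94198785-94199034, plus strand) and the Cox7c promoter (chr13:86046796-86047045, minus strand) held neither site. Capitals mark matches to the NRF1 site or, as CTTCCGG on the other strand, the GABPA site.
Sdha: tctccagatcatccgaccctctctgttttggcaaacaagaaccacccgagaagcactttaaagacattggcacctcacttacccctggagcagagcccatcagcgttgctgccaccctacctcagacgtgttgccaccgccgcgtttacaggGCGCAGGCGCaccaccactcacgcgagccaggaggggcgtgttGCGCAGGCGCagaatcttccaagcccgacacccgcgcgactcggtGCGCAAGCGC
Sdhd: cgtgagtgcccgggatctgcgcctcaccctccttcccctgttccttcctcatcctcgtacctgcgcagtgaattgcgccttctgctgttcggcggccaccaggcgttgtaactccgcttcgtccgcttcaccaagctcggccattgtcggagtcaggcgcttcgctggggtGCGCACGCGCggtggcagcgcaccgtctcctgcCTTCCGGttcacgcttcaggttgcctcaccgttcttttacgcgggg
Cox6a1: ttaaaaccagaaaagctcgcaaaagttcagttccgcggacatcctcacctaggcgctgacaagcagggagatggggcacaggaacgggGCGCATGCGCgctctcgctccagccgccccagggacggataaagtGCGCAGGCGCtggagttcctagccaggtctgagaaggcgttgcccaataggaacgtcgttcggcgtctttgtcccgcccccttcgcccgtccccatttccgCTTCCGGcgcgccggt
Ndufa12: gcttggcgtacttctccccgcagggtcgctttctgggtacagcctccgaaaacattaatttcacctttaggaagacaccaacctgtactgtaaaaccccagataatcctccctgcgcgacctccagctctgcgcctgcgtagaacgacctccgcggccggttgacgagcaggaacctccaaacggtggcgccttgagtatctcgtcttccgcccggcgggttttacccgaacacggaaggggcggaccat
Cox7c: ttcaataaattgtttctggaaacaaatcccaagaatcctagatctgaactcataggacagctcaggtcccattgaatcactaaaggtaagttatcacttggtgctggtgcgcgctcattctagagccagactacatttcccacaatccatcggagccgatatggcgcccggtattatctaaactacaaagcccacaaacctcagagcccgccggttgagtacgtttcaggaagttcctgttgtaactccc
The Sdha window held 3 NRF1 matches, which began 98, 55 and 10 bases before the start. The Sdhd window had 1 NRF1 match and 1 GABPA match, and the Cox6a1 window had NRF1 matches at 2 places and 1 GABPA match that began 16 bases before the start. Among tested members, the median log2 fold change (6OHA over control) was 0.024 for the 17 with an NRF1 match and -0.016 for the 49 without one. It was -0.016 for the 17 with a GABPA match and -0.0026 for the 49 without.

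No subunit gene passed the test after 6 h of 6OHA. Of the 95 members, 92 had enough counts to be tested, and 0 were called higher and 0 lower by edgeR's quasi-likelihood test at a Benjamini-Hochberg adjusted p under 0.05 over all tested genes. Over the whole table, tested genes numbered 14634, of which 295 were called (2.02%), with 1.39% higher and 0.629% lower. DESeq2 and limma-voom also called 0 members. At an unadjusted p under 0.05, 2 members stood out of 92, against 10.9% of all tested genes. The groups did not overlap for 18 members (19.6%), against a background of 38.8%. In 11 of these the 6OHA libraries lay above both control libraries (background 18.7%) and in 7 they lay below both (background 20.1%).

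The members lay close to 0. Their median log2 fold change was 0.0070, beside -0.0061 for all tested genes, and the single values ran from -0.29 to 0.31. For 67 of 92 members (72.8%) the fold change was within 0.1 of 0 on the log2 scale, against 53.0% of the 10339 tested genes with a mean of at least 5 counts-per-million (CPM). The 95% interval stayed within 1.5-fold in either direction for 89 of 92 members (96.7%), the exceptions being Ndufa12, Cox7a1 and Cox6b2. It stayed within 1.25-fold for 54 members (58.7%). Among tested genes with a mean of at least 5 CPM these shares were 88.3% and 36.8%. These intervals limit the size of a change that the data allow and do not show that a gene stayed the same. For 88 members (95.7%) the 2 libraries of 1 group differed from each other by more than the groups did, against 72.0% of all tested genes. Most members lie well above 5 CPM, with COX1 at a mean of 16703 CPM, and the other genes were not matched to them by level. These shares describe the members and were not tested against other genes.

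**Figure D1:**
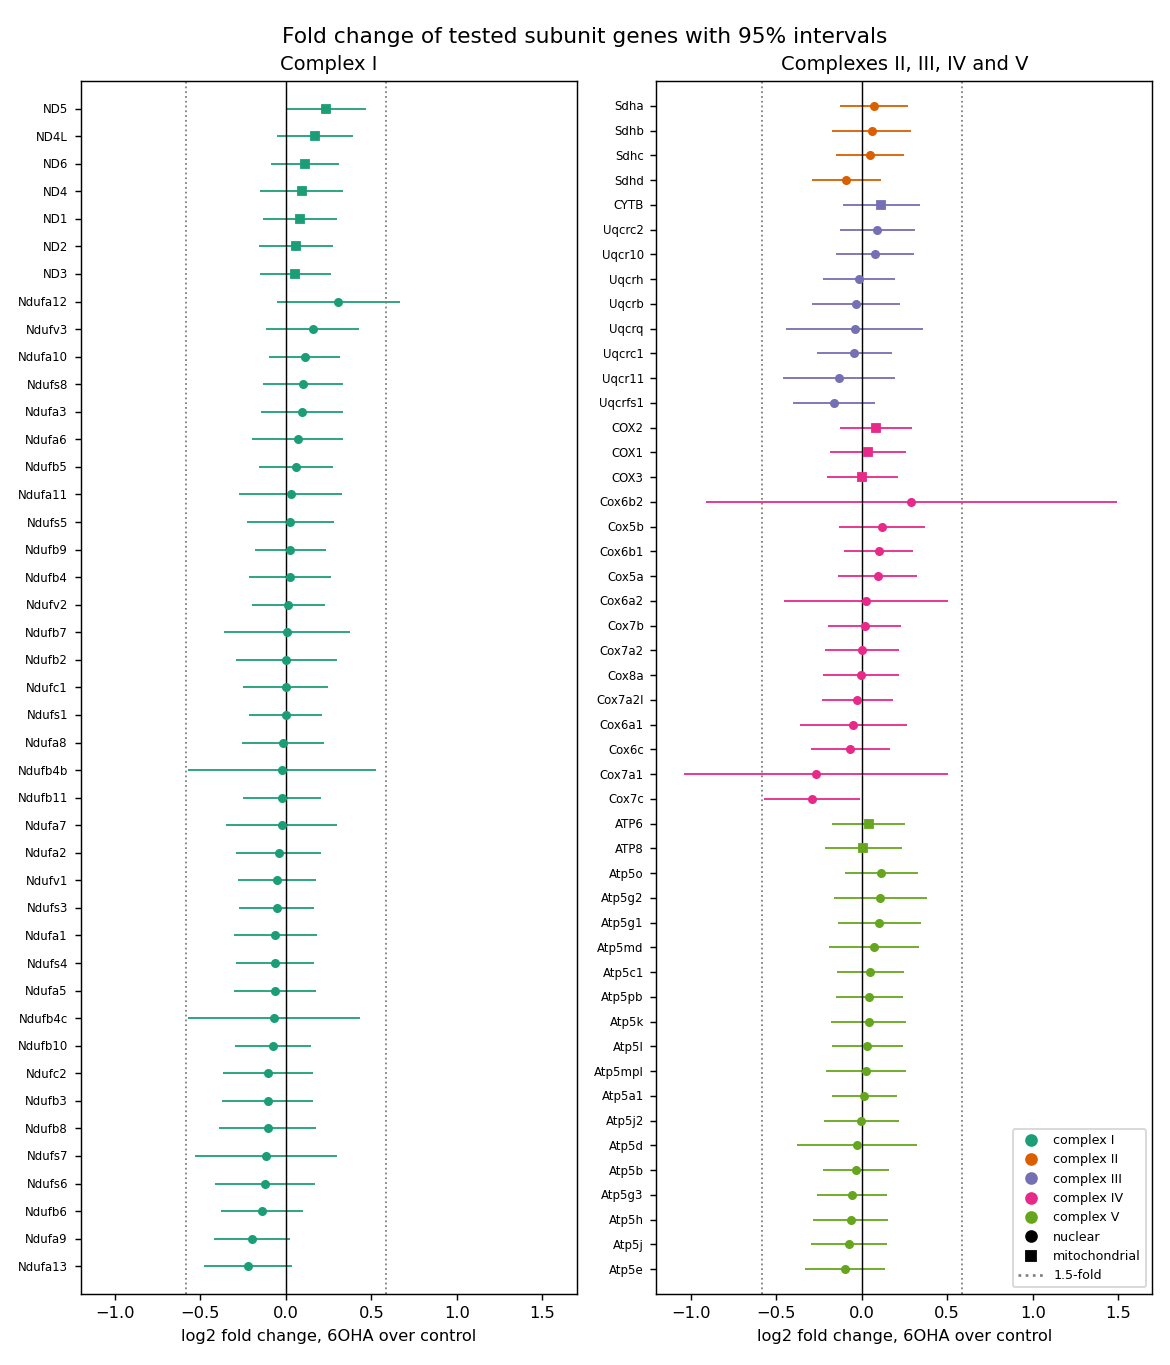
Log2 fold change of 6OHA over control (x axis) for 91 of the 92 tested subunit genes (rows), with its 95% interval from edgeR as a bar. Colours mark the complex, squares mitochondrial and circles nuclear genes, and dotted lines a 1.5-fold difference. The points lie between -0.29 and 0.31, and the bars of 3 genes cross a dotted line.

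The 13 mitochondrial genes were among the most abundant transcripts of these cells. They took 4.53% and 3.95% of all read counts in the 6OHA libraries, and 4.01% and 4.21% in the control libraries. The 82 nuclear members together took 0.767% and 0.776% in 6OHA, and 0.769% and 0.797% in control. Counts of the mitochondrial genes were thus 5.91 and 5.09 times those of the nuclear members in 6OHA, and 5.21 and 5.28 times in control. Replicate 1 of 6OHA held the highest mitochondrial share and replicate 3 of 6OHA the lowest, so the groups overlapped. The mean ratio was 5.50 ± 0.583 in 6OHA and 5.25 ± 0.0498 in control (SD, n = 2), a difference smaller than the SD within 6OHA. As these are shares of a bulk RNA pool, fewer cells carrying a transcript and less of it per cell cannot be told apart.

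**Figure D2:**
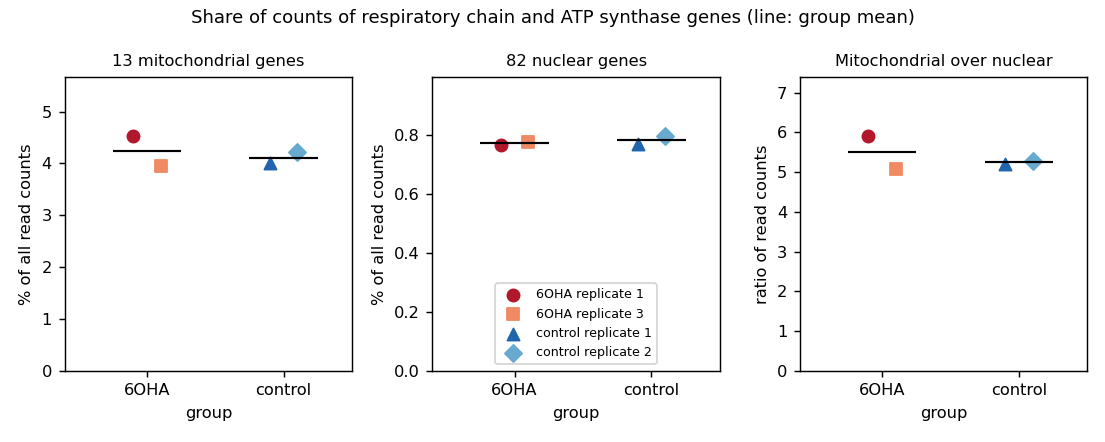
Share of all read counts taken by the 13 mitochondrial genes (left, %) and by the 82 nuclear members (middle, %), and the ratio of their counts (right), with 6OHA left of control in each panel. Points are libraries and lines are group means; the 6OHA libraries lie at 4.53% and 3.95% for mitochondrial genes and enclose the control values of 4.01% and 4.21%.

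COX1, the catalytic subunit of complex IV and the most abundant transcript in the table, was at 24894 and 21756 TPM in 6OHA and at 22987 and 22947 TPM in control. Both control values lay between those of the 6OHA libraries. COX2, ATP6, ND1, CYTB and ATP8 followed with ranges over the 4 libraries that overlapped from each to the next, from 7078 TPM at the lowest to 10142 TPM at the highest. COX3 came below all of these, with 6109 to 6879 TPM. ND4, ND5 and ND2, proton-pumping subunits of complex I, overlapped one another between 3221 and 4504 TPM. Below them and apart from each other came ND4L with 2342 to 2881 TPM, ND3 with 745.5 to 831 TPM and ND6, the only one of the 13 on the other strand, with 485 to 542 TPM. In all, 9 of the 13 were among the 20 most abundant genes. The libraries were poly-A selected, and the part of this selection in the order of levels was not tested.

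**Figure D3:**
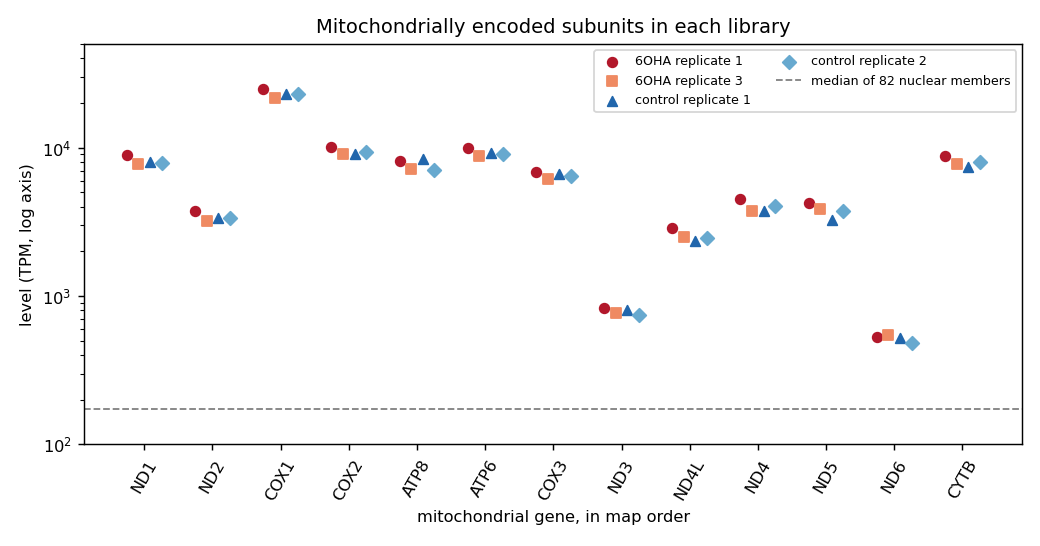
Level of each mitochondrial subunit gene (y axis, TPM on a log scale) in the 4 libraries, with genes in map order on the x axis and 6OHA points left of control points. The dashed line is the median of the 82 nuclear members, 174 TPM; COX1 lies highest at 21756 to 24894 TPM and ND6 lowest at 485 to 542 TPM.

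By counts, all 13 mitochondrial genes had a fold change above 0, from 0.0044 for COX3 to 0.23 for ND5 on the log2 scale, with a median of 0.081. On the log2(TPM + 1) scale COX3 was at -0.012 and ATP8 at -0.0045, and the others stayed above 0. None was called. ND5, at positions 11742 to 13565 of the mitochondrial DNA, had 3656 and 3303 CPM in 6OHA and 2713 and 3205 CPM in control, a log2 fold change of 0.23 with an SE of 0.11 and an edgeR adjusted p of 0.457. It was 0.12 without control replicate 1, 0.36 without control replicate 2, 0.16 without 6OHA replicate 1 and 0.31 without 6OHA replicate 3, none of them past the threshold. Both 6OHA libraries lay above both control libraries for ND5, ND4L and ND6, 3 of the 13 (23.1%), against 18.7% of all tested genes. ND4L had 402 and 347.9 CPM against 318 and 347.8 CPM, so its groups were barely apart. ND6 had 130 and 132 CPM against 123 and 119 CPM. The 13 values are not separate observations, because these genes are transcribed together and sit in the same 4 libraries. Without 6OHA replicate 1 the median of the 13 was -0.026, and without 6OHA replicate 3 it was 0.17. Within 6OHA, replicate 3 over replicate 1 had a median log2 ratio of -0.19 over the 13 genes, larger than the difference between the groups.

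Pairs that lie on the same stretch of mitochondrial DNA kept similar proportions. ATP8 and ATP6, membrane subunits of ATP synthase, overlap in sequence, and the level of ATP8 was 0.822 and 0.823 times that of ATP6 in 6OHA and 0.908 and 0.775 times in control. The level of ND4L, which overlaps ND4, was 0.640 and 0.671 times that of ND4 in 6OHA and 0.621 and 0.617 times in control. Only the second pair had groups that did not overlap. Reads of the overlap belong to both genes of a pair, and the notes do not say how they were counted. In the GENCODE M21 transcripts, 100% of the 31-base words of COX2, 99.9% of those of COX3, 99.5% of ATP6, 98.9% of ND4L and 98.1% of ND3 also occurred in other annotated genes, such as Gm28661 for COX2 and Gm28437 for COX3. COX1 shared 63.9% of its words and ND4 62.8%. The counts of all these genes are uncertain for that reason. Lower shares were found for ND5 (16.8%), ND2 (13.5%), ATP8 (7.47%), ND6 (7.36%), CYTB (6.55%) and ND1 (0%).

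The nuclear genes of complex I had a median level of 131 and 137 TPM, as the group means of 6OHA and control. Ndufa2, an accessory subunit, led with 285 and 344 TPM in 6OHA and 316 and 337 TPM in control. By the mean over the 4 libraries Ndufb8 followed, with 201 and 223 TPM against 205 and 260 TPM. Ndufb9, with 219 and 226 TPM against 224 and 218 TPM, lay above Ndufb8 in both 6OHA libraries and in control replicate 1. Of 37 tested genes 0 were called, and the median log2 fold change was -0.021. The catalytic core outside the membrane is made by 7 nuclear genes, and their fold changes ran from -0.12 for Ndufs7 to 0.10 for Ndufs8. Ndufv1, the NADH-binding subunit, had 57.1 and 56.7 TPM in 6OHA and 58.3 and 60.9 TPM in control. Ndufs1, a core subunit of the electron path, had a log2 fold change of -0.0017.

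Among the nuclear genes of complex I, the highest and the lowest fold change belonged to accessory subunits. Ndufa12 (chromosome 10, 94199035 to 94221440) had 45.2 and 45.4 CPM in 6OHA and 29.3 and 44.2 CPM in control. Control replicate 1 was low and the other 3 libraries lay near each other, so the log2 fold change of 0.31 had an SE of 0.16 and an edgeR adjusted p of 0.567. It was 0.63 (edgeR adjusted p 0.0154) without control replicate 2 and 0.036 (edgeR adjusted p 0.917) without control replicate 1. Ndufa13 (chromosome 8, 69894163 to 69902558), also known as GRIM-19, had 67.2 and 84.7 CPM in 6OHA and 89.5 and 87.6 CPM in control, with a log2 fold change of -0.22 and an edgeR adjusted p of 0.565. For Ndufa9 the libraries had 74.5 and 72.7 CPM in 6OHA and 89.5 and 78.9 CPM in control, with a log2 fold change of -0.20 and an edgeR adjusted p of 0.544. Ndufb4 made up 88.8% and Ndufb4b and Ndufb4c 5.36% and 5.84% of their summed level in 6OHA, against 88.2%, 5.52% and 6.23% in control. All 31-base words of Ndufb4c recur in other genes, Ndufb4 sharing the most, so this split is uncertain. Other genes also share 20.7% of the words of Ndufa12 and 33.2% of those of Ndufa13, so their counts are uncertain as well.

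The 4 genes of complex II, the succinate dehydrogenase that also works in the citric acid cycle, had fold changes close to 0. Sdha, the flavoprotein that oxidises succinate, had 158 and 155 TPM in 6OHA and 159 and 142 TPM in control, with a log2 fold change of 0.070. Sdhb, the iron-sulfur subunit, had 245 and 257 TPM in 6OHA and 227 and 261 TPM in control, with a log2 fold change of 0.058. The membrane anchors were Sdhc, with 201 and 211 TPM against 207 and 198 TPM, and Sdhd, with 242 and 238 TPM against 272 and 244 TPM. Their log2 fold changes were 0.047 and -0.091. All 4 intervals lay within 1.25-fold, and the lowest adjusted p of edgeR among them was 0.853.

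In complex III, which passes electrons to cytochrome c, Uqcrb and Uqcrh were the most abundant nuclear members. Cyc1, a subunit gene that the symbol patterns missed, had 262 and 245 TPM in 6OHA and 345 and 398 TPM in control. In control it lay above both of them. Uqcrb had 305 and 260 TPM in 6OHA and 320 and 264 TPM in control, and Uqcrh had 282 and 276 TPM in 6OHA and 284 and 286 TPM in control. Of 8 genes 0 were called, with a median log2 fold change of -0.037. Uqcrfs1, the Rieske iron-sulfur protein, had the lowest level, 75.9 and 66.1 TPM in 6OHA and 82.6 and 77.7 TPM in control. Its counts were 46.8 and 40.7 CPM in 6OHA, both below 49.5 and 48.2 CPM in control. The log2 fold change was -0.16 with an edgeR adjusted p of 0.712. The core proteins Uqcrc1 and Uqcrc2 had log2 fold changes of -0.044 and 0.092. Uqcrc1 had 199 and 219 TPM in 6OHA and 208 and 227 TPM in control. Uqcrc2 had 171 and 153 TPM in 6OHA and 164 and 143 TPM in control. The mitochondrial partner CYTB, which carries the ubiquinone sites, had a log2 fold change of 0.11.

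Among the nuclear members of complex IV, cytochrome c oxidase, Cox5a and Cox6b1 had the highest mean levels over the 4 libraries. Cox4i1, a subunit gene that the symbol patterns missed, lay above both. Its level was 803 and 896 TPM in 6OHA and 890 and 872 TPM in control. Cox5a had 643 and 559 TPM in 6OHA and 541 and 596 TPM in control. Cox6b1 had 557 and 595 TPM in 6OHA and 541 and 543 TPM in control. Cox6a1 overlapped both, with 504 and 562 TPM in 6OHA and 473 and 639 TPM in control. Of 16 genes 13 were tested and 0 were called. Cox7c (chromosome 13, 86044798 to 86046795), a small membrane subunit, had the lowest fold change of all members, with 52.0 and 54.6 CPM in 6OHA and 73.4 and 56.8 CPM in control. Both 6OHA libraries lay below both control libraries, but control replicate 2 was close to them. Other genes share 24.5% of the 31-base words of Cox7c, so its counts are uncertain. The log2 fold change was -0.29 with an SE of 0.13 and an edgeR adjusted p of 0.431. It was -0.46 (edgeR adjusted p 0.0401) without control replicate 2 and -0.091 (edgeR adjusted p 0.748) without control replicate 1. Cox5b, at the other end among genes with a mean of at least 5 CPM, had 119 and 108 CPM in 6OHA and 93.9 and 115 CPM in control, with a log2 fold change of 0.12.

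Several complex IV subunits exist in alternative forms named for the tissue where they prevail, and MG5 cells showed mainly the widely expressed ones. The heart and muscle form Cox6a2 made up 3.35% and 3.60% of the summed Cox6a level in 6OHA and 3.22% and 3.46% in control, the rest being Cox6a1. The muscle form Cox7a1 made up 1.39% and 1.24% of its family in 6OHA and 1.36% and 1.89% in control. The groups overlapped for both of these muscle forms. Cox7a2 held 63.5% and 63.7% of that family in 6OHA, against 63.5% and 61.02% in control, and Cox7a2l, a factor of supercomplex assembly, held 35.1% and 35.0% against 35.2% and 37.1%. The testis form Cox6b2 made up 0.221% and 0.286% of Cox6b in 6OHA and 0.164% and 0.264% in control. Cox7b2, Cox8b and Cox8c, forms known from testis or muscle, had 0 counts in all 4 libraries. A count of 0 allows up to 0.0966 and 0.0850 CPM in 6OHA and 0.0705 and 0.0872 CPM in control, taking 3 counts as the limit for counting error. Their partner Cox7b had 280 and 266 TPM in 6OHA against 292 and 253 TPM in control. Cox8a had 330 and 318 TPM against 315 and 342 TPM.

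ATP synthase had the highest levels among the nuclear members. The catalytic head is built from alpha subunits, made by Atp5a1, with 927 and 988 TPM in 6OHA and 969 and 943 TPM in control, and from beta subunits, made by Atp5b, with 728 and 693 TPM in 6OHA and 768 and 700 TPM in control. Although the protein holds these in equal number, the transcript level of Atp5a1 was 1.27 and 1.43 times that of Atp5b in 6OHA and 1.26 and 1.35 times in control. Of 17 nuclear genes 0 were called, with a median log2 fold change of 0.025 and a range from -0.097 for Atp5e, of the central stalk, to 0.12 for Atp5o, of the side stalk. Atp5o had 173 and 172 CPM in 6OHA and 149 and 170 CPM in control, and Atp5e had 40.5 and 44.6 CPM in 6OHA and 44.4 and 46.7 CPM in control. The genes Atp5g1, Atp5g2 and Atp5g3 make the same mature protein of the rotating ring. Atp5g3 supplied 43.7% and 40.3% of their summed level in 6OHA and 45.9% and 43.5% in control. Atp5g1 supplied 28.9% and 30.6% in 6OHA and 28.2% and 28.9% in control, and Atp5g2 supplied the remainder. Other genes share 40.2% of the 31-base words of Atp5g2, 14.1% of Atp5g1 and 0% of Atp5g3, so this split is uncertain. They share 49.6% of those of Atp5o, so its counts are uncertain as well.

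Counts and deposited levels gave nearly the same fold change for 91 of 92 members, with a difference under 0.1 on the log2 scale. The exception was Atp5d, the delta subunit of the central stalk, which was singled out after its values were seen. It had 50.7 and 56.6 CPM in 6OHA and 44.4 and 65.3 CPM in control, but 79.8 and 88.5 TPM in 6OHA and 104 and 148 TPM in control. The log2 fold change was -0.028 by counts and -0.56 on the log2(TPM + 1) scale, where limma gave an adjusted p of 0.217. What made the measures differ for this gene was not tested.

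**Figure D4:**
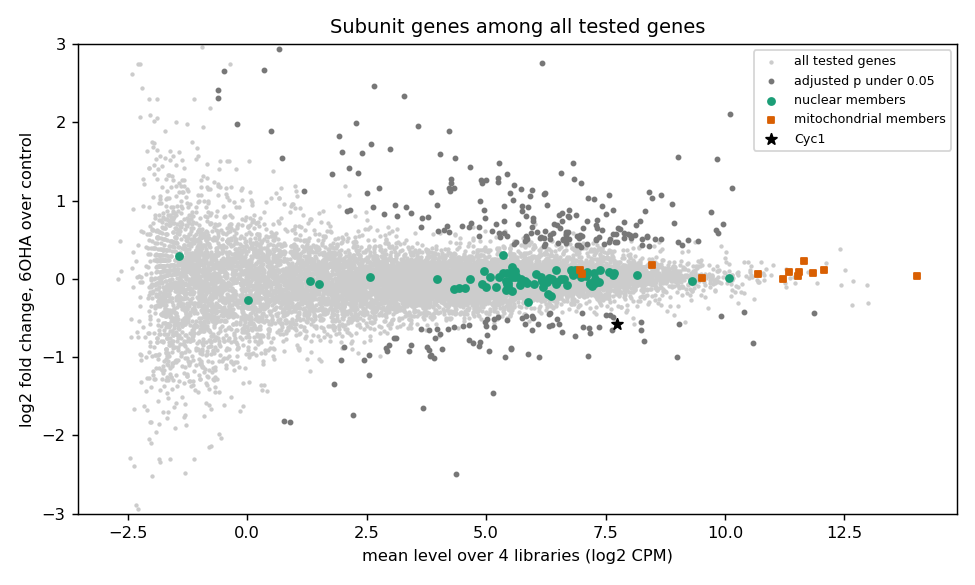
Log2 fold change of 6OHA over control (y axis) against the mean level of 4 libraries (x axis, log2 CPM) for all tested genes in light grey and those at an adjusted p under 0.05 in dark grey. Nuclear members are green circles, mitochondrial members orange squares and Cyc1 a black star; 17 genes beyond 3 are not shown, and the members lie between -0.29 and 0.31.

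The spread between libraries of a group moved with the GC content of the transcripts. Across 78 nuclear members with a GC value, the log2 ratio of 6OHA replicate 3 over replicate 1 had a Pearson r of 0.46 with GC content, and that of control replicate 2 over replicate 1 an r of 0.58. Over all tested genes these were 0.23 and 0.36. The points share their libraries and are genes, not replicates. The 19 nuclear members with at least 55% GC had median ratios of 0.15 within 6OHA and 0.34 within control, and the 7 with under 45% had -0.073 and -0.16. The fold change between the groups had an r of 0.051 with GC content. With an offset for GC content per library 0 members were called, and the lowest edgeR adjusted p, that of Cox7c, was 0.101.

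**Figure D5:**
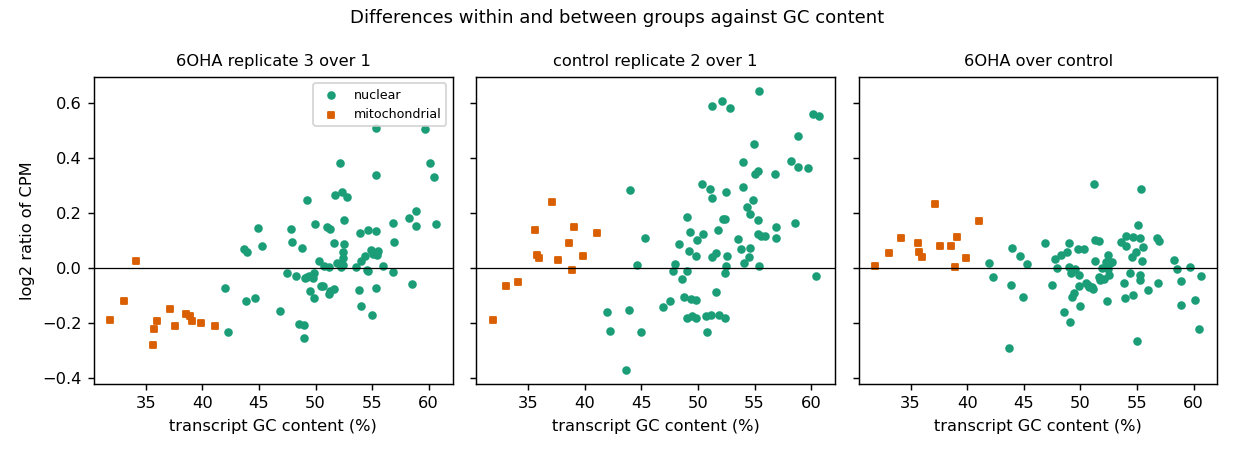
Log2 ratio of CPM (y axis) against transcript GC content (x axis, %) for the tested members, within 6OHA (left panel, replicate 3 over 1), within control (middle, replicate 2 over 1) and between the groups (right, 6OHA over control). Nuclear genes with at least 55% GC have median ratios of 0.15 and 0.34 within the groups, while the fold change between groups has an r of 0.051 with GC content.

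The wider pathway was covered by 10 lists with 164 genes, of which 152 were tested and 0 were called, against 2.02% of all tested genes. At an unadjusted p under 0.05 of edgeR there were 8, against 10.9% of all tested genes. The groups did not overlap for 47 of the 152 (30.9%), against 38.8%. The lists repeat 3 members, Atp5md, Atp5mpl and Cox7a2l, so 149 of the tested genes were not members. The subunit genes missed by the symbol patterns included Cyc1, the cytochrome c1 of complex III. Cyc1 had 187 and 157 CPM in 6OHA and 225 and 286 CPM in control, and both 6OHA libraries lay below both control libraries. The log2 fold change was -0.57 (SE 0.13, 95% interval -0.85 to -0.29) with an edgeR adjusted p of 0.0510, just outside the threshold. It was past the threshold in 8 of 16 alternatives, with adjusted p from 0.00102 with DESeq2 to 0.248 without a filter on low counts. Leaving out single libraries gave -0.73 to -0.39. In the same list Cox4i1, the common form of a complex IV subunit, had 280 and 311 CPM in 6OHA and 301 and 306 CPM in control, and Cycs, cytochrome c itself, had 141 and 134 CPM against 156 and 132 CPM. The hypoxia-linked form Cox4i2 had 2.89 and 2.55 CPM against 1.72 and 2.30 CPM, with an edgeR adjusted p of 0.608.

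Among the other lists the smallest p belonged to Etfdh, which feeds electrons from fatty acid oxidation to ubiquinone beside complexes I and II. It had 66.7 and 63.7 CPM in 6OHA and 51.9 and 51.5 CPM in control, a log2 fold change of 0.33 with an edgeR adjusted p of 0.150. Coa5, an assembly factor of complex IV, had 294 and 276 CPM in 6OHA and 245 and 225 CPM in control, with a log2 fold change of 0.28 and an edgeR adjusted p of 0.220. With the GC offset both passed, at adjusted p of 0.0107 for Etfdh and 0.00888 for Coa5. Of 49 tested assembly factors 0 were called, the median log2 fold change being 0.011. Cmc2, another assembly factor, had 16.0 and 15.1 CPM in 6OHA and 11.0 and 13.2 CPM in control (edgeR adjusted p 0.337). Aifm2, a quinone reductase beside the chain, had a log2 fold change of 0.26 (edgeR adjusted p 0.487), and Higd1a, a hypoxia-induced factor of complex IV, one of 0.14 (edgeR adjusted p 0.787).

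Factors that copy and transcribe mitochondrial DNA gave 0 calls of 25 tested. Tfam, which packages this DNA and starts its transcription, had 23.3 and 21.2 CPM in 6OHA and 23.0 and 21.0 CPM in control, and Polrmt, its RNA polymerase, had 13.5 and 16.6 CPM against 12.8 and 16.5 CPM. Polg, the DNA polymerase of mitochondria, had a log2 fold change of -0.25 (edgeR adjusted p 0.433), and Fastkd5, which helps to mature mitochondrial transcripts, one of 0.26 (edgeR adjusted p 0.597). Of 12 tested regulators of nuclear subunit genes 0 were called. Nrf1 had 27.5 and 28.2 CPM in 6OHA and 27.1 and 28.2 CPM in control, Gabpa had 76.2 and 74.1 CPM against 79.5 and 69.9 CPM, and the coactivator Ppargc1b had 35.2 and 37.1 CPM against 39.4 and 38.5 CPM. Yy1, a general factor, had a log2 fold change of 0.094 (edgeR adjusted p 0.857). Ppargc1a, the PGC-1 alpha of muscle and brown fat, had 0 and 0 counts in 6OHA and 0 and 4 counts in control and was not tested.

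Entry of fuel into the chain was likewise without calls. The groups did not overlap for 11 of 21 genes of the citric acid cycle and pyruvate entry (52.4%), against 38.8% of all tested genes. Nor did they for 4 of 5 tested kinases and phosphatases of pyruvate dehydrogenase (80%). Over the other lists this share ran from 16.7% to 50%, and these shares were not tested. Of 21 tested genes of the citric acid cycle and pyruvate entry 0 were called, the smallest p being that of Pcx, pyruvate carboxylase, with 7.04 and 9.88 CPM in 6OHA and 11.7 and 11.2 CPM in control (log2 fold change -0.43, edgeR adjusted p 0.376), followed by Dlst with -0.18 (0.505). The phosphatases that switch pyruvate dehydrogenase on had fold changes of opposite sign, Pdp1 at -0.30 (edgeR adjusted p 0.346) and Pdp2 at 0.26 (edgeR adjusted p 0.419). Pdk4, a kinase that switches it off and known as a target of PPAR receptors in other tissues, had 0 counts in all libraries. Among 13 tested genes of coenzyme Q synthesis, Coq10a at 0.25 (edgeR adjusted p 0.597) and Coq8b at -0.22 (0.752) had the smallest p. The adenine nucleotide carrier Slc25a5 had 447 and 458 CPM in 6OHA and 457 and 437 CPM in control, and Slc25a4 had 134 and 141 CPM against 148 and 147 CPM (edgeR adjusted p 0.810). Slc25a31, the testis form of this carrier, had 0.747 and 1.17 CPM against 0.419 and 0.807 CPM (edgeR adjusted p 0.665).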

How the data were processed

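Read counts per gene, FPKM and TPM values were used as the authors deposited them, per the file headers, for 2 libraries of 6OHA and 2 of control. Libraries were stranded and poly-A selected, per the labels' protocols. The submitters' processing notes list bcl2fastq 2.20.0, Trimmomatic 0.38, HISAT2 2.1.0, Bowtie2, SAMtools 1.9, StringTie 2.1.3b and mm10 without roles; the use of strand is not given in the sources used here. Counts were filtered by filterByExpr, scaled by TMM and tested with edgeR 4.0.16 (quasi-likelihood, group only, Benjamini-Hochberg over 14634 genes). DESeq2 1.42.0, limma 3.58.1 and R 4.3.3 served alternatives, and Python 3.11.15 the summaries. CPM uses TMM-scaled totals of tested genes. GC content came from GENCODE M21, for 93.3% of tested genes. Replicates were not copies (chi-square per degree of freedom 10.2 in 6OHA and 21.3 in control).

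Members and lists were chosen with earlier results of these data known. Named genes were the 13 mitochondrial genes, core subunits, alternative forms, untested members and the 2 smallest p of each related list. Within each complex, the 2 most abundant nuclear members were also named. So were its nuclear members with the highest and lowest fold change at a mean of at least 5 CPM. Libraries of bexarotene-treated cells were not analysed here. A gene that the rule names is not reported here.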

Additional observations from a re-analysis of the deposited data

How the results depend on the processing

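No paired analysis was possible because the groups share only replicate number 1. The 0 members called higher and 0 called lower stayed at 0 under 15 of 16 alternatives, the exception being the fit without control replicate 2, so leaving out single libraries gave 0 to 1 in each direction. The count over all genes, 295, was 120 with no filter, 152 on log2(TPM + 1), 135 on log2(FPKM + 1), 149 on log2(FPKM + 0.1) and 841 with the GC offset. Related genes called, 0, were 1 with upper-quartile scaling, a mean of at least 5 CPM, the length offset, DESeq2's test or its size factors, 3 with the GC offset, and 0 to 1 without single libraries. The nuclear median of -0.0026 was -0.062 on log2(FPKM + 1), -0.063 on log2(FPKM + 0.1) and -0.041 to 0.046 without single libraries, where the mitochondrial median of 0.081 was -0.026 to 0.17. Of 1103 alternative values of 70 named genes, 1091 kept their side of the threshold and 12 gained a call. Signs of uncalled members changed for up to 29 of 92, without 6OHA replicate 1. The causes were not tested. Where 1 library was left in a group, its variation was taken from the other group. With 2 libraries a group, 3 members have intervals beyond 1.5-fold, and the low counts of Cox6b2 and Cox7a1 widen theirs.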
